A study of Mus musculus with 10 samples.

Results

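FBB1.7 and FBB1.10 are subclones of MEL cells, a mouse erythroleukemia line of red cell precursors transformed by a retrovirus, and their transcript levels were set directly against each other. The comparison rests on 4 of the study's 10 arrays, namely the 2 titled FBB1.7 and the 2 titled FBB1.10. It asks what separates the pair of subclones whose changes from the parental line had looked most alike. Arrays were assigned to lines by title, while the pair itself was picked with earlier results of these data known. Both subclones stably express the transcription factor BCL11A with a FLAG-Biotag, in MEL cells that contain BirA, a bacterial ligase that attaches biotin to such a tag. The other 6 arrays hold 2 each of FBB1.5 and FBB1.11, which carry the same construct, and of the Parental line, which has BirA and no tagged BCL11A. BirA is therefore shared by all 5 lines, and no drug or further treatment is named for any of them. Each subclone is 1 clone, so a difference between FBB1.7 and FBB1.10 that comes from the tagged protein and one that comes from the cell each clone grew from cannot be told apart. The labels do not say whether both arrays of 1 line were made from different cultures. The p-values therefore speak only of the spread between arrays, possibly a technical one.

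BCL11A is a zinc finger repressor that silences embryonic and fetal globin genes in adult red cell precursors. It acts together with chromatin-modifying partners such as the NuRD complex and with erythroid factors such as GATA1. MEL cells are held at an early erythroid stage, in which adult globin genes are already read at a basal level.

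RNA was read on Affymetrix Mouse Genome 430 2.0 arrays, on which a gene is read by 1 or more probe sets. Array medians lay between 29.6 and 31.6. Tests covered the 25061 of 45037 probe sets, 64 controls aside, that were brighter than the median of the whole table, 30.5, on 2 or more of the 10 arrays. The actin 3'/5' ratio, a sign of RNA quality, was 1.07 and 1.06 in FBB1.7, against 1.12 and 1.17 in FBB1.10. It lay between 1.14 and 1.80 in the remaining 6 arrays, with the highest value in the second Parental array, and its part in the differences below was not tested. Of 10 erythroid markers with a probe set, 9 exceeded the table median on all 4 arrays, and Slc4a1, the band 3 anion exchanger of mature red cells, lay below it on each. Summed over the 10 markers the intensity was 11794 and 11482 in FBB1.7, against 10901 and 11871 in FBB1.10, so the groups overlapped.

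The 2 subclones, a pair picked for its likeness, were not the closest pair of subclones by median distance. The median absolute log2 difference of the line means over all tested probe sets was 0.125 between FBB1.7 and FBB1.10. The 2 arrays of FBB1.7 differed from each other by a median of 0.131 and those of FBB1.10 by 0.134, on single arrays, which vary more than means of 2. Among the 6 pairs of subclones, FBB1.10 and FBB1.11 were closer still, at 0.118, and FBB1.5 and FBB1.11 stood at 0.12. The median distance of FBB1.7 was 0.17 from FBB1.5 and 0.144 from FBB1.11. Differences of 1 or more on the log2 scale were found for 22 probe sets between FBB1.7 and FBB1.10, the fewest of the 6 pairs. There were 23 between FBB1.10 and FBB1.11, 44 between FBB1.5 and FBB1.11 and 57 between FBB1.7 and FBB1.11. FBB1.5 differed at 70 from FBB1.10 and at 147 from FBB1.7. From the Parental line, the median distance was 0.176 for FBB1.7 and 0.143 for FBB1.10.

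Few transcripts separated the subclones beyond the spread between arrays. FBB1.7 had 24 lower and 7 higher probe sets than FBB1.10 in limma's moderated test with Benjamini-Hochberg adjustment over all tested probe sets, so 31 passed, which is 0.124% of them. The lower ones are led by Mcpt2, a mast cell protease gene, and include Ndst2, an enzyme gene of heparin synthesis, and 1 probe set of Bcl11a itself. The higher ones read Rab7b, a small GTPase gene, peroxiredoxin 1, a cluster of histone H2A genes and the nuclear RNA-binding proteins Hnrnpa2b1, Hnrnpa3 and Alyref. The lower ones make up 0.0958% and the higher ones 0.0279% of the tested probe sets. At an unadjusted p under 0.05 there were 1622 lower and 1053 higher probe sets, in all 2675, where 1253 fall by chance alone. With each array centred on its own median, 15 were lower and 8 higher.

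**Figure D1:**
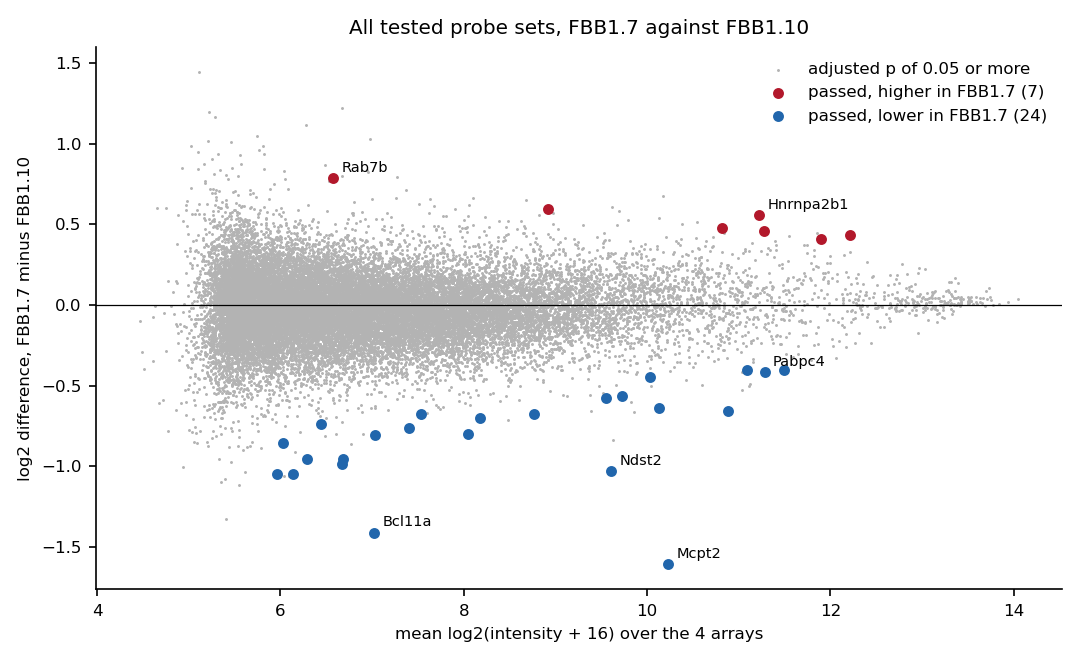
Each point is 1 of the 25061 tested probe sets, with its mean log2(intensity + 16) over the 4 arrays on the x axis and the log2 difference, FBB1.7 minus FBB1.10, on the y axis. The 7 that passed above 0 are red and the 24 that passed below 0 are blue, and most of the widest grey differences lie at low intensity.

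The 31 probe sets with a passing test had log2 differences between 0.40 and 1.61 in size, and all 31 kept both FBB1.7 arrays on one side of both FBB1.10 arrays. That separation holds for 43.5% of all tested probe sets, so alone it says little. Just inside the threshold were Acot1, Rpl22 and probe sets of Prdx1 and Kdm6b, at an adjusted p of 0.0471, and just outside it was another probe set of Prdx1, at 0.0510. Of the 22 probe sets with a difference of 1 or more, 5 passed. The 2 calls of Mcpt2 and Ndst2 held whichever of the 10 arrays was left out, where a line left with 1 array is assumed to vary like the others. Each of the other 29 was lost without at least 1 array of FBB1.7 and without at least 1 of FBB1.10, and was kept in 2 to 7 of the 10 fits. The count was 3 without the first FBB1.10 array and 4 without the first FBB1.7 array. It was 7 without the second FBB1.10 array, 8 without the second FBB1.7 array and 15 without either array of FBB1.11. It was 164 without the first and 155 without the second Parental array, the line whose 2 arrays lay farthest apart (median 0.165).

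FBB1.7 was the line that stood apart in most of the 31. Both FBB1.7 arrays lay outside the range of the other 8 arrays for 25 of them, against 14.7% of all tested probe sets. Both FBB1.10 arrays lay outside the rest for 6, against 4.33% of all. Rab7b met both descriptions and the Bcl11a probe set met neither. The Parental mean was nearer to FBB1.10 than to FBB1.7 for 26 of the 31 (83.9%), against 59.6% of all tested probe sets. Of the 24 that were lower in FBB1.7, the Parental mean lay above both subclones for 16, between them for 7 and below both for 1. Of the 7 that were higher, it lay below both for 6 and between them for 1. These positions share arrays with the comparison and are given as a description.

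**Figure D2:**
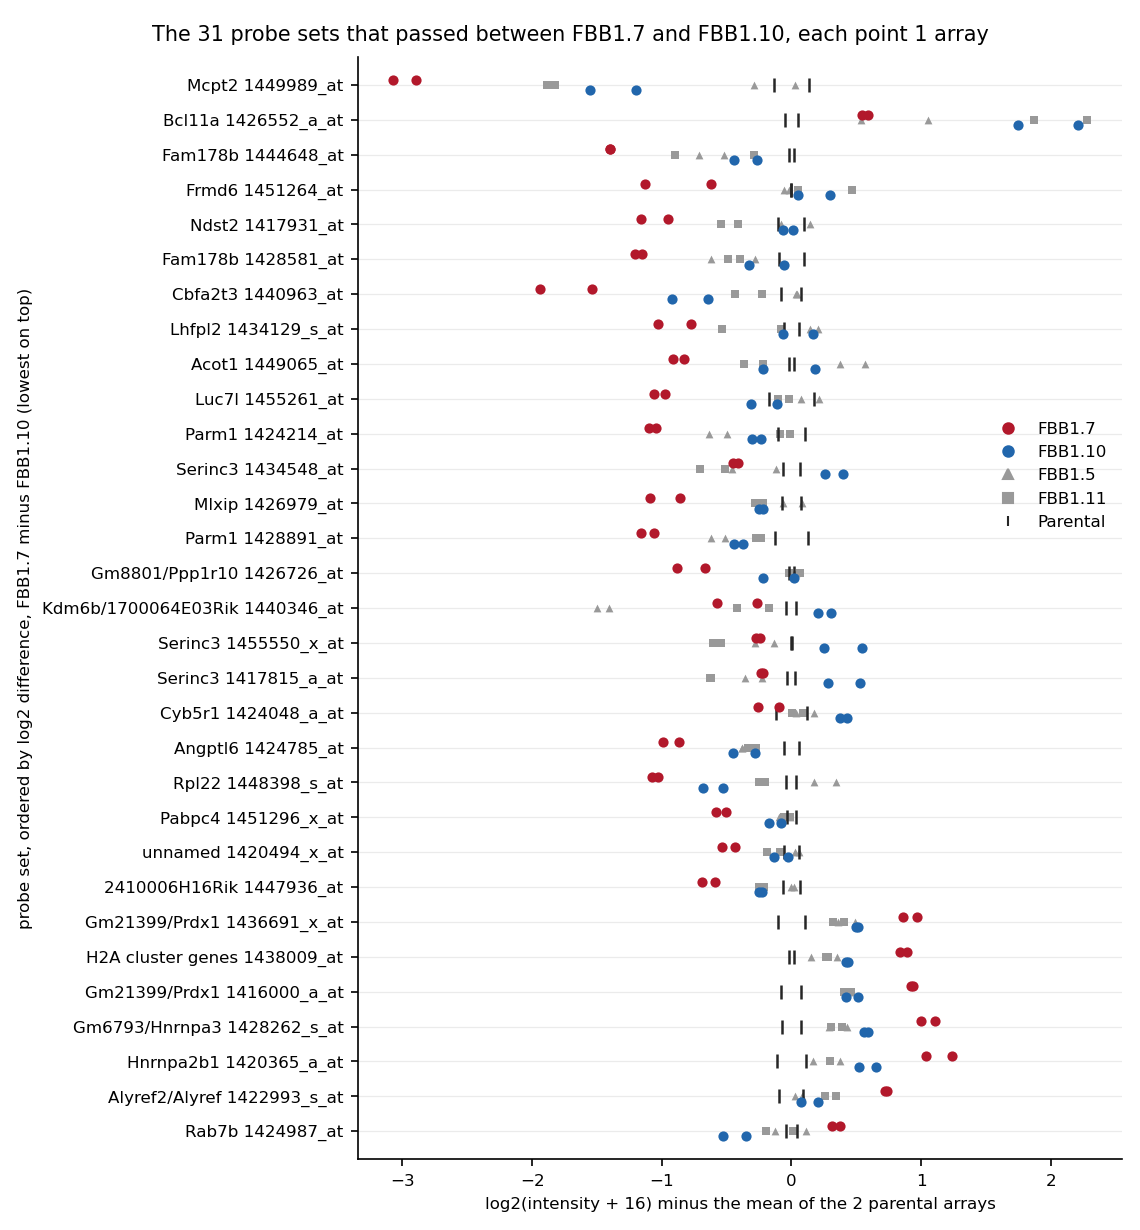
Each row is 1 of the 31 probe sets that passed and each point 1 array, as log2(intensity + 16) minus the mean of the 2 Parental arrays. FBB1.7 (red) is the outermost line in most rows, while for Serinc3, Kdm6b and Cyb5r1 the FBB1.10 arrays (blue) lie above all the others.

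Mcpt2 encodes a chymase-type protease stored in the granules of mast cells. Its intensity was 716 and 630.1 in FBB1.7, against 2356 and 1836 in FBB1.10. Both FBB1.7 arrays were lower than every other array of the study. The mean was 673 ± 60.8 in FBB1.7 and 2096 ± 368 in FBB1.10 (SD, n = 2 each), a log2 difference of -1.61 ± 0.12 (SE, limma's adjusted p = 2.76e-05), or 3.10-fold lower. FBB1.11 stood between them at a mean of 1487, whereas FBB1.5 had 4988 and Parental cells had 5453. Without any 1 array the adjusted p stayed at or below 0.00168.

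Ndst2, on chromosome 14 like Mcpt2, encodes a sulfotransferase that modifies heparin, the sugar polymer to which granule proteases bind in mast cells. Its intensity was 569.5 and 492 in FBB1.7, against 1069.5 and 1128 in FBB1.10. FBB1.7 was again the lowest of all 5 lines, and FBB1.10 lay near Parental cells at 1120.4 and FBB1.5 at 1144.5. The log2 difference was -1.03 ± 0.10 (limma's adjusted p = 0.000758), 2.08-fold lower, with an adjusted p of up to 0.0231 when an array was left out. FBB1.11 had 799, between FBB1.7 and FBB1.10.

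Other mast cell genes did not follow as a group. Of 17 genes on the list, 8 were tested and 1 passed (Mcpt2), against 14 of all 12502 tested genes (0.112%). Of the 8, 4 lay above and 4 below 0, with a median log2 difference of -0.04 against -0.02 over all tested genes. Cma1, a chymase gene on chromosome 14, had 33.0 and 29.5 in FBB1.7, against 89.2 and 76.2 in FBB1.10. One FBB1.7 array lay below the table median, so Cma1 was at least 2.60-fold lower, and it missed the threshold (log2 difference -1.06 ± 0.21, limma's adjusted p = 0.0630). Cma1 had 447 in FBB1.5, 44.7 in FBB1.11 and 293 in Parental cells. Tpsb2, a mast cell tryptase gene, pointed the other way, with 60.9 and 47.5 in FBB1.7, against 32.3 and 43.2 in FBB1.10 (log2 difference 0.39, limma's adjusted p = 0.437). Of 11 mast cell markers, 4 exceeded the table median on all 4 arrays. The genes of the stem cell factor receptor (Kit), of the IgE receptor chains (Fcer1a, Ms4a2), of histamine synthesis (Hdc) and of the tryptase Tpsab1 lay below it on each. The 11 markers summed to 1165 and 1045 in FBB1.7, against 2806 and 2252 in FBB1.10, a difference that Mcpt2 makes up for the most part. In bulk RNA, fewer cells of a type and less RNA per cell cannot be told apart.

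Bcl11a was read by 7 probe sets, of which 6 were tested and 1 passed. That one had 62.4 and 65.0 in FBB1.7, against 233 and 165 in FBB1.10. The groups did not overlap. The FBB1.10 arrays lay on either side of the FBB1.11 mean of 213, and the FBB1.7 arrays lay just below the FBB1.5 mean of 79.0, while Parental cells had 37.8. The log2 difference was -1.41 ± 0.19 (SE, limma's adjusted p = 0.0122), a 3.07-fold lower level in FBB1.7. The call was lost without the first FBB1.10 array or without either FBB1.7 array, with an adjusted p of up to 0.105. The other 5 probe sets of the gene did not pass. The one with the smallest p among them had 229 and 236 in FBB1.7, against 279 and 317 in FBB1.10 (log2 difference -0.34, limma's adjusted p = 0.268). The rest stood at 0.25, -0.20, -0.08 and -0.01 on the log2 scale, and the last of these changed sign with median centring and with quantile normalization. It was not analysed here which of them also detect the transcript of the tagged construct.

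**Figure D3:**
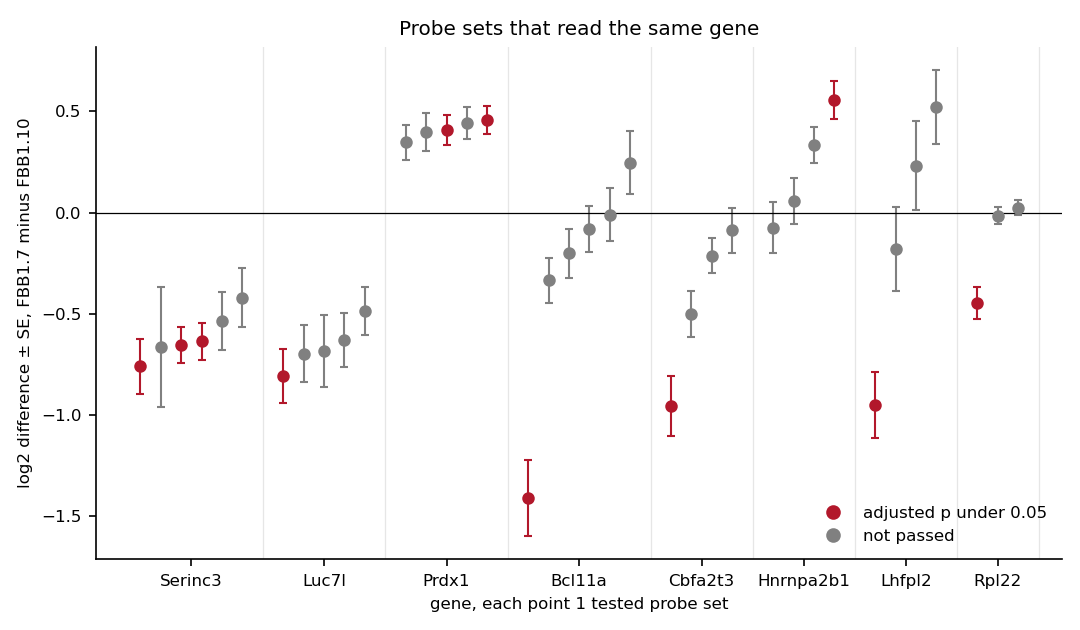
Each point is 1 tested probe set of the gene named below it, with its log2 difference, FBB1.7 minus FBB1.10, and the SE of the fit, in red where the adjusted p was under 0.05. All probe sets of Serinc3, Luc7l and Cbfa2t3 lie below 0 and all of Prdx1 above it. For Bcl11a, Lhfpl2 and Rpl22 the passing probe set stands away from the others of its gene.

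No globin probe set passed the test between the subclones. Adult alpha-globin is encoded by Hba-a1 and Hba-a2, which share most of their probe sets. The brightest shared one had 3932 and 3842 in FBB1.7, against 2752 and 3264 in FBB1.10, with 2164 in Parental cells. The arrays did not overlap, and the log2 difference of 0.37 ± 0.10 missed the threshold (limma's adjusted p = 0.155). A second shared probe set had 2189 and 2043 in FBB1.7, against 1421 and 1683 in FBB1.10 (0.45, limma's adjusted p = 0.182). Another had 58.1 and 90.9 in FBB1.7, against 50.3 and 45.5 in FBB1.10 (0.48, limma's adjusted p = 0.463). The probe set of Hba-a2 alone had 143 and 97.4 in FBB1.7, against 38.6 and 92.9 in FBB1.10 (0.80, limma's adjusted p = 0.212). For that probe set the mean was 120 in FBB1.7, 115 in FBB1.5 and 133 in FBB1.11. In each of these 4 probe sets both FBB1.7 arrays lay above both FBB1.10 arrays, and none passed. Such a separation, in either direction, holds for 43.5% of all tested probe sets. Since the shared ones read the same genes, they are not 4 separate readings.

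For adult beta-globin, the shared probe set had 945 and 877 in FBB1.7, against 875 and 923 in FBB1.10, and the groups overlapped (log2 difference 0.02, limma's adjusted p = 0.970). Hba-x, the embryonic alpha-like globin gene, had 68.5 and 62.0 in FBB1.7, against 60.9 and 71.4 in FBB1.10 (-0.01, limma's adjusted p = 0.988). Hbb-b2 alone stood at 0.03 (limma's adjusted p = 0.982), near the table median. The signs of these 3 values turned in single alternatives, so no direction is drawn from them. The embryonic beta-like genes Hbb-y and Hbb-bh1, which BCL11A is known to repress, were not above the table median on any of the 4 arrays, where their highest values were 20.6 in FBB1.7 and 20.3 in FBB1.10. A difference in them was not detectable at this signal.

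Among erythroid regulators, 1 probe set of Cbfa2t3 was lower in FBB1.7. Cbfa2t3 (ETO2) is a corepressor that binds the GATA1 and TAL1 complex in red cell precursors. Its passing probe set had 69.1 and 48.2 in FBB1.7, against 114 and 142 in FBB1.10, and 231 in Parental cells. FBB1.7 was the lowest line and FBB1.10 the next lowest, since FBB1.5 had 237 and FBB1.11 had 180.4. The log2 difference was -0.96 ± 0.15 (limma's adjusted p = 0.0205), and without 1 array the adjusted p reached 0.175. The 3 other probe sets of the gene stood at -0.50 (limma's adjusted p = 0.100), -0.21 (0.382) and -0.09 (0.851), all below 0 and none passing. Over 20 erythroid transcription factors, each read by its brightest probe set, none passed, 5 lay above 0, and the median log2 difference was -0.07. Lyl1, a bHLH factor related to TAL1, had 605 and 592 in FBB1.7, against 452 and 404 in FBB1.10 (0.47, limma's adjusted p = 0.134). Zfpm1 (FOG1), the GATA1 cofactor, had 751 and 767 in FBB1.7, against 854 and 928 in FBB1.10 (-0.22, limma's adjusted p = 0.346). Tcf3, a bHLH partner of TAL1, had 136 and 147 in FBB1.7, against 164 and 202 in FBB1.10 (-0.33, limma's adjusted p = 0.387). None of the 13 NuRD complex genes passed, with 6 above 0 and a median of -0.03, and none of 15 globin regulators and BCL11A partners passed when read by the brightest probe set, with 3 above 0 and a median of -0.08.

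Parm1, Angptl6 and Fam178b were also lower in FBB1.7. Parm1, a mucin-like membrane glycoprotein gene, passed with both of its probe sets. The brighter had 219 and 204 in FBB1.7, against 345 and 362 in FBB1.10 (log2 difference -0.70 ± 0.11, limma's adjusted p = 0.0205). The dimmer had 188 and 180.4 in FBB1.7, against 324 and 341 in FBB1.10 (-0.80 ± 0.11, limma's adjusted p = 0.0122). FBB1.7 was below all other lines in both, and Parental cells were highest at 476 and 405. Angptl6, which encodes a secreted angiopoietin-like protein, had 707 and 650.5 in FBB1.7, against 953 and 1074 in FBB1.10 (-0.57 ± 0.09, limma's adjusted p = 0.0184). Fam178b, a gene whose product is little described, passed with both probe sets. The brighter had 57.5 and 55.0 in FBB1.7, against 114 and 141 in FBB1.10 (-0.99 ± 0.14, limma's adjusted p = 0.0176). The dimmer had 33.0 on both FBB1.7 arrays, close to the table median, against 79.1 and 91.9 in FBB1.10 (-1.05 ± 0.17, limma's adjusted p = 0.0386). Each Fam178b reading on the FBB1.7 arrays was lower than on any other array. Without 1 array the adjusted p reached 0.167 for Parm1 and Angptl6 and 0.186 for Fam178b.

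Serinc3 encodes a multi-pass membrane protein of the serine incorporator family, and here FBB1.10 was the line that stood apart. Its brightest probe set had 1465 and 1501 in FBB1.7, against 2601 and 2115 in FBB1.10. The FBB1.7 arrays lay in the range of FBB1.5, at a mean of 1540.4, FBB1.11, at 1188, and Parental cells, at 1777, and both FBB1.10 arrays lay above all of them. The log2 difference was -0.66 ± 0.09 (limma's adjusted p = 0.0122). A second probe set had 882 and 890 in FBB1.7, against 1512 and 1269.7 in FBB1.10 (-0.64, limma's adjusted p = 0.0173). Another had 113 and 116 in FBB1.7, against 216 and 195 in FBB1.10 (-0.76, limma's adjusted p = 0.0454). The remaining 3 probe sets did not pass and stood at -0.42, -0.54 and -0.67, so all 6 pointed one way. Cyb5r1, a cytochrome b5 reductase gene, had 632 and 563 in FBB1.7, against 913 and 882 in FBB1.10 (-0.58, limma's adjusted p = 0.0443), with 678 in Parental cells. A probe set shared by the histone H3 lysine 27 demethylase gene Kdm6b and 1700064E03Rik had 295 and 368 in FBB1.7, against 557 and 517 in FBB1.10 (-0.68, limma's adjusted p = 0.0471). There FBB1.5 was far below the other lines at a mean of 153, with 362 in FBB1.11 and 447 in Parental cells. Of the probe sets of Kdm6b alone, 1 stood at -0.46 (limma's adjusted p = 0.199) and 2 near 0.

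Further probe sets that were lower in FBB1.7 read genes of differing roles. Luc7l, a gene of the U1 splicing particle, had 79.96 and 85.5 in FBB1.7, against 145 and 169 in FBB1.10 on its passing probe set (log2 difference -0.81 ± 0.13, limma's adjusted p = 0.0395). Its other 4 probe sets lay between -0.49 and -0.70 and did not pass. Pabpc4, which encodes a cytoplasmic poly(A)-binding protein, had 2196 and 2079.9 in FBB1.7, against 2952 and 2774 in FBB1.10 (-0.42 ± 0.06, limma's adjusted p = 0.0176). Its other probe set stood at -0.28 and did not pass (limma's adjusted p = 0.126). Mlxip (MondoA), a glucose-responsive transcription factor, had 56.7 and 45.9 in FBB1.7, against 97.1 and 95.02 in FBB1.10 (-0.74, limma's adjusted p = 0.0443). In each of these 3 genes both FBB1.7 arrays were below all other arrays. Acot1, a cytosolic acyl-CoA thioesterase gene, had 31.1 and 33.9 in FBB1.7, against 60.3 and 85.0 in FBB1.10 (-0.86, limma's adjusted p = 0.0471). A probe set shared by Acot1 and Acot2 stood at -0.54 and did not pass (limma's adjusted p = 0.0765). Frmd6, a FERM domain protein gene, had 20.3 and 35.7 in FBB1.7, against 66.1 and 81.3 in FBB1.10, and since 1 FBB1.7 array lay below the table median it was at least 2.22-fold lower (limma's adjusted p = 0.0443). The passing probe sets of Acot1 and Frmd6 are read close to the background level in FBB1.7. A probe set shared by Ppp1r10, a nuclear subunit of protein phosphatase 1, and Gm8801 had 142 and 120.2 in FBB1.7, against 199.7 and 239 in FBB1.10 (-0.68, limma's adjusted p = 0.0454). The probe set of Ppp1r10 alone stood at -0.15 (limma's adjusted p = 0.855). 2410006H16Rik had 2579 and 2407 in FBB1.7, against 3333 and 3269 in FBB1.10 (-0.40, limma's adjusted p = 0.0176). An unnamed probe set also passed, at -0.40 (limma's adjusted p = 0.0395).

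As for Bcl11a, the passing probe sets of Rpl22 and Lhfpl2 stood apart from the others of the gene. For Rpl22, a ribosomal protein gene, it had 895 and 865 in FBB1.7, against 1272 and 1141 in FBB1.10 (log2 difference -0.45, limma's adjusted p = 0.0471). The 2 other Rpl22 probe sets stood at 0.02 and -0.01 (limma's adjusted p = 0.876 and 0.948). For Lhfpl2, a membrane protein gene, it had 35.8 and 45.6 in FBB1.7, against 84.7 and 103 in FBB1.10 (-0.95, limma's adjusted p = 0.0395). The brightest Lhfpl2 probe set had 422 and 352 in FBB1.7, against 205 and 337 in FBB1.10 (0.52, limma's adjusted p = 0.297). A difference of the whole transcript is therefore not given for either gene.

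Of the 7 probe sets that were higher in FBB1.7, 2 read Prdx1, a peroxiredoxin that breaks down hydrogen peroxide, together with Gm21399. The first had 2896 and 2868 in FBB1.7, against 2026 and 2160.2 in FBB1.10 (log2 difference 0.46 ± 0.07, limma's adjusted p = 0.0176). The second had 4222 and 4544 in FBB1.7, against 3277 and 3320.0 in FBB1.10 (0.41 ± 0.07, limma's adjusted p = 0.0471). FBB1.7 was above every other line in both, and Parental cells were the lowest, at 1510.2 and 2326. The 3 other probe sets that read Prdx1 stood between 0.35 and 0.44, so all 5 lay above 0. A probe set shared by 10 histone H2A genes, H2ac4 among them, had 5379 and 5599 in FBB1.7, against 4036 and 4074 in FBB1.10 (0.44 ± 0.06, limma's adjusted p = 0.0173). These genes supply histone H2A during DNA replication, and the probe set cannot tell them apart. The list of linker and other histone genes with a probe set of their own had 6 tested members, of which 2 lay above 0 and none passed, with a median of -0.18. Of these H2az1, a variant H2A gene, had 2857 and 2784 in FBB1.7, against 2251 and 2269 in FBB1.10 (0.32, limma's adjusted p = 0.219).

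The others with a gene role in the nucleus bind RNA. Hnrnpa2b1, a splicing and transport factor, had 2692 and 3096 in FBB1.7, against 1872 and 2052 in FBB1.10 on 1 of 4 probe sets (log2 difference 0.55 ± 0.09, limma's adjusted p = 0.0395), and 3 of the 4 lay above 0. The probe set of its relative Hnrnpa3, shared with Gm6793, had 2037 and 2199 in FBB1.7, against 1505 and 1532 in FBB1.10 (0.47, limma's adjusted p = 0.0395). A probe set shared by the mRNA export factor genes Alyref and Alyref2 had 575 and 580.2 in FBB1.7, against 361 and 395 in FBB1.10 (0.59, limma's adjusted p = 0.0395). The probe sets of Alyref alone stood at 0.33 (limma's adjusted p = 0.147) and -0.01 (0.996), and neither passed. In the passing probe sets of these 3, FBB1.7 was the highest line. Rab7b, a small GTPase of late endosomes, had 112 and 107 in FBB1.7, against 61.4 and 52.6 in FBB1.10 (0.78 ± 0.14, limma's adjusted p = 0.0443), 1.93-fold higher. Parental cells, at 82.9, lay between the subclones, with FBB1.7 above and FBB1.10 below all other lines. Without 1 array the adjusted p of these higher probe sets reached values between 0.141 and 0.306.

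Upstream sequences are shown as context for 5 of the genes described above, picked after their values were seen from those whose tested probe sets all lay on the same side of 0. They are the 250 bases before the transcript start in RefSeq's annotation of GRCm38.p6, written 5' to 3' on the gene's own strand, which is minus for Ndst2, Cbfa2t3 and Serinc3 and plus for Parm1 and Prdx1. Ndst2 lies at chr14:20734563-20734812, Parm1 at chr5:91517450-91517699, Serinc3 at chr2:163645144-163645393, Prdx1 at chr4:116685349-116685598, and the windows of the 2 Cbfa2t3 starts at chr8:122699110-122699359 and chr8:122678176-122678425. Capitals mark GATAA, a core of GATA factor sites, or TGACCA, a motif bound by BCL11A, on either strand.
Ndst2: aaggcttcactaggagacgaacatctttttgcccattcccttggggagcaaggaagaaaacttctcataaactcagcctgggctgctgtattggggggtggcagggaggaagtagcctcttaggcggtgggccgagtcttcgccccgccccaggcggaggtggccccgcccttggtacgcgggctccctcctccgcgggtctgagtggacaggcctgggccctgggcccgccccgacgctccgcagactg
Parm1: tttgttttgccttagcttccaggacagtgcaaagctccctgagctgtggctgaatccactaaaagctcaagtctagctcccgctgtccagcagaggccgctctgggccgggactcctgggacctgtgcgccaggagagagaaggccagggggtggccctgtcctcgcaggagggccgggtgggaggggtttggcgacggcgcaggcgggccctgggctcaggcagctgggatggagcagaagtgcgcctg
Cbfa2t3, first window: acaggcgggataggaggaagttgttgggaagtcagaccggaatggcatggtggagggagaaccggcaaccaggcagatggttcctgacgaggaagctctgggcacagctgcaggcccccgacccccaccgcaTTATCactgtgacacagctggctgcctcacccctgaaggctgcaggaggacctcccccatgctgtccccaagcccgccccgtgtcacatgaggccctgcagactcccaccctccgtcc
Cbfa2t3, second window: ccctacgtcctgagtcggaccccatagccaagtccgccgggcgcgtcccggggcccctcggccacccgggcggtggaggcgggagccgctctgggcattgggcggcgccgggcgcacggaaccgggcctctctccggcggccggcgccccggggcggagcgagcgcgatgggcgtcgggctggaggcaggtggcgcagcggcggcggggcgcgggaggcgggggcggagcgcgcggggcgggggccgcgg
Serinc3: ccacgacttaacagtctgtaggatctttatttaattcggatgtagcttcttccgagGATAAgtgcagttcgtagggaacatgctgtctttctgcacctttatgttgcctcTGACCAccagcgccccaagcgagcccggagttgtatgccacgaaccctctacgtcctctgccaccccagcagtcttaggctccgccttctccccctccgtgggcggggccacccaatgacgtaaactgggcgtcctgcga
Prdx1: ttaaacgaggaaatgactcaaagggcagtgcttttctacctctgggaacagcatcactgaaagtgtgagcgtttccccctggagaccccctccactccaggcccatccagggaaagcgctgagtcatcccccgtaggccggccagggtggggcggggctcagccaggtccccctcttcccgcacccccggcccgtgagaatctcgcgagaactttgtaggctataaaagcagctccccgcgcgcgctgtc
The Serinc3 window holds 1 GATAA and 1 TGACCA, which do not overlap, and the first Cbfa2t3 window holds 1 GATAA, read on the other strand as TTATC. The second Cbfa2t3 window and those of Ndst2, Parm1 and Prdx1 hold neither motif in these letters. Among 32851 such windows, 22.6% hold GATAA (or TTATC) and 11.4% hold TGACCA (or TGGTCA). A match is a run of letters and no measured binding.

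Gene lists were then read with 1 probe set per gene, the brightest, for which 14 of 12502 genes passed (0.112%). Mcpt2 was the only list member among them, so the lists are described by their counts and medians. Over all tested genes the median log2 difference was -0.02, and 44.9% lay above 0. Both FBB1.7 arrays lay above both FBB1.10 arrays for 18.9% of genes and below both for 26.2%. FBB1.7 had the highest of the 5 line means for 21.2% and the lowest for 28.9%.

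Proteasome genes, whose products form the complex that degrades ubiquitin-tagged proteins, had the highest median of any list with at least 6 tested members. It was 0.195 over 28 genes, of which 26 lay above 0. Both FBB1.7 arrays lay above both FBB1.10 arrays for 20 of the 28, against 18.9% of all genes, and below both for none. FBB1.7 had the highest line mean for 24, against 21.2% of all genes. None of the 28 passed, and 14 had an unadjusted p under 0.05, all of them above 0, against 4.41% of all genes on that side. Psma2, a subunit of the core particle, had 1460.3 and 1497 in FBB1.7, against 1108 and 1175 in FBB1.10 (0.37 ± 0.08, limma's adjusted p = 0.0717). Psmb7, a catalytic core subunit, had 1973 and 2035 in FBB1.7, against 1629 and 1561 in FBB1.10 (0.33, limma's adjusted p = 0.0929). Psmd1, a subunit of the regulatory cap, had 692 and 699 in FBB1.7, against 540.5 and 543 in FBB1.10 (0.35, limma's adjusted p = 0.199). The 2 members below 0 were Psmc6, at -0.06, and Psmd3, at -0.02. The median over all probe sets of these genes was smaller, at 0.13.

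Genes of mitosis and S phase had a median of 0.10, with 23 of 29 above 0, against 44.9% of all genes. At an unadjusted p under 0.05 there were 7, all above 0, against 4.41% of all genes on that side. None passed. The members with the smallest p act in DNA replication. Pcna, the sliding clamp of DNA polymerase, had 1864 and 2005 in FBB1.7, against 1370.3 and 1511 in FBB1.10 (0.42 ± 0.08, limma's adjusted p = 0.0630). Mcm5, of the replicative helicase, had 1470.0 and 1454 in FBB1.7, against 1085 and 1149 in FBB1.10 (0.38, limma's adjusted p = 0.134). Mcm2 of the same helicase had 940.2 and 986 in FBB1.7, against 800.2 and 733 in FBB1.10 (0.32, limma's adjusted p = 0.140). The 6 members below 0 were Cenpe, Foxm1, Bub1b, Plk1, Ttk and Cdc20, genes of mitosis or its control, between -0.18 and -0.03, while other mitotic genes such as Tpx2, at 0.19, Birc5, at 0.18, and Ccnb2, at 0.11, lay above 0, none of them passing.

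Antioxidant genes had a median of 0.17, with 14 of 19 above 0, against 44.9% of all genes. Both FBB1.7 arrays lay above both FBB1.10 arrays for 11 members, against 18.9% of all genes. They lay below both for none, against 26.2% of all genes. No member passed, and the median over all probe sets of the antioxidant genes was smaller, at 0.0935. Hmox1, which encodes the heme-degrading enzyme heme oxygenase 1, had 517 and 462 in FBB1.7, against 405 and 311 in FBB1.10 (0.45, limma's adjusted p = 0.182), with 171 in Parental cells. Prdx4, a peroxiredoxin of the endoplasmic reticulum, had 326 and 359 in FBB1.7, against 253 and 269 in FBB1.10 (0.37, limma's adjusted p = 0.240). Gpx1, a glutathione peroxidase gene, had 5099 and 4916 in FBB1.7, against 4603 and 4530.5 in FBB1.10 (0.13, limma's adjusted p = 0.371). Prdx1 is read only by shared probe sets and was not counted in this list. Oxidative phosphorylation genes had a median of 0.06, with 23 of 29 above 0, and none passed. FBB1.7 was the highest line for 17 of them, against 21.2% of all genes.

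**Figure D4:**
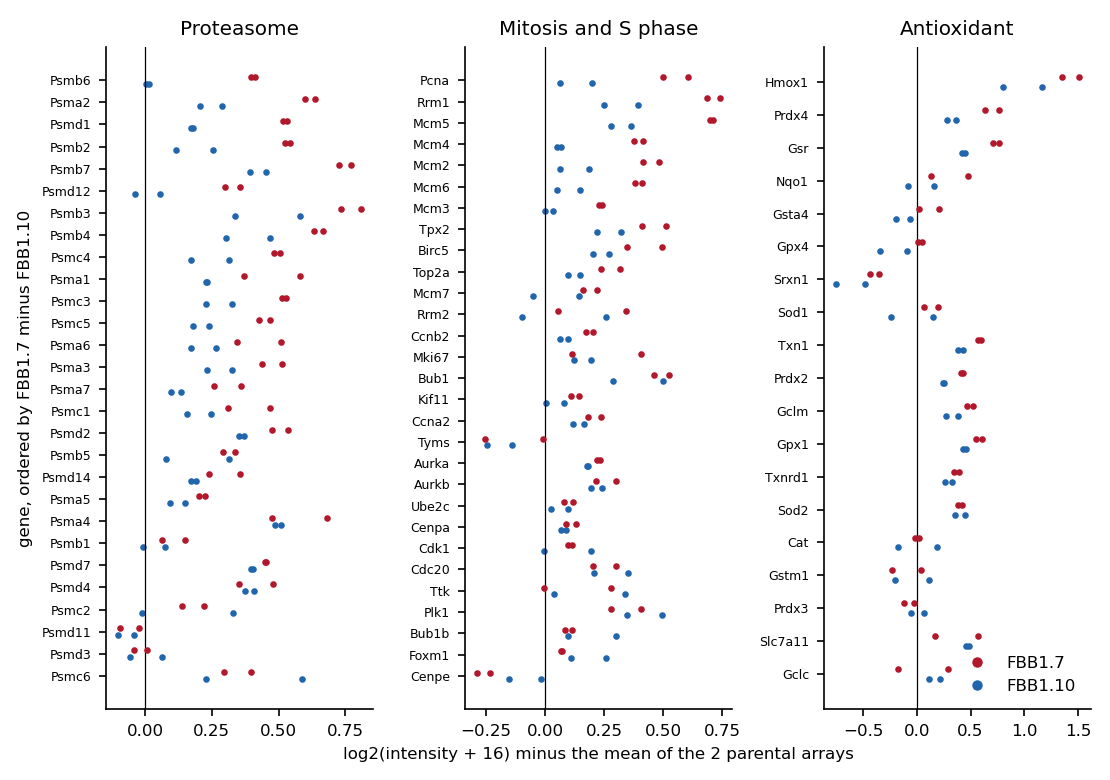
Each row is 1 gene, read by its brightest probe set, and each point 1 array, as log2(intensity + 16) minus the mean of the 2 Parental arrays, for the proteasome, mitosis and S phase, and antioxidant lists. The FBB1.7 arrays (red) lie to the right of both FBB1.10 arrays (blue) in 20 of 28 proteasome rows. They do so in 15 of 29 mitosis and S phase rows and 11 of 19 antioxidant rows, against 18.9% of all genes. None of the genes shown passed.

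Lipid synthesis genes varied among themselves. Of 28 tested, 18 lay above 0, with a median of 0.08, and none passed. They ran from -0.40 for Fasn to 1.22 for Elovl6. Over all their probe sets the median was 0.0369. Scd1, the fatty acid desaturase gene, had 941 and 964 in FBB1.7, against 575 and 665 in FBB1.10 (0.61 ± 0.12, limma's adjusted p = 0.0630). Fdps, of the mevalonate pathway, had 935 and 965 in FBB1.7, against 642 and 699.5 in FBB1.10 (0.49, limma's adjusted p = 0.159). Insig1, a sterol sensor gene, had 390.4 and 438 in FBB1.7, against 300.5 and 267 in FBB1.10 (0.52, limma's adjusted p = 0.126). Fasn, the fatty acid synthase gene, stood on the other side, with 487 and 414 in FBB1.7, against 562 and 635 in FBB1.10 (-0.40, limma's adjusted p = 0.216).

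ATF4 targets, genes switched on by amino acid shortage, had a median of -0.10 and 22 of 28 members below 0. None passed, and 4 of the 28 lay below 0 at an unadjusted p under 0.05, against 7.27% of all genes on that side. Atf5, a transcription factor of that response, had 482 and 478 in FBB1.7, against 621 and 705 in FBB1.10 (-0.45, limma's adjusted p = 0.108). Trib3, a pseudokinase gene of the same response, had 629.6 and 574 in FBB1.7, against 789 and 796 in FBB1.10 (-0.39, limma's adjusted p = 0.129). For Atf5, FBB1.7 was the outermost line, whereas for Trib3 it was FBB1.10. Iron handling genes had a median of -0.14, with 3 of 13 above 0 and none passing. The exception with the smallest p was Fth1, the ferritin heavy chain gene, at 11453 and 10865 in FBB1.7, against 9916 and 9945 in FBB1.10 (0.17, limma's adjusted p = 0.117). Cytokine receptor signaling genes had a median of -0.09, with 7 of 24 above 0 and none passing. Among them Socs3, a feedback inhibitor of JAK kinases, had 72.2 and 49.6 in FBB1.7, against 24.01 and 37.3 in FBB1.10. With 1 FBB1.10 array below the table median, it was at least 1.77-fold higher and did not pass (limma's adjusted p = 0.155). Stat5b, a transcription factor downstream of the erythropoietin receptor, had 251 and 156 in FBB1.7, against 289 and 269 in FBB1.10 (-0.46, limma's adjusted p = 0.275).

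Genes of the red cell itself lay on both sides of 0. Of 21 red cell membrane genes, 7 lay above 0 and none passed, with a median of -0.08. Aqp1, the water channel gene, had 749 and 714 in FBB1.7, against 546 and 484 in FBB1.10 (0.50 ± 0.10, limma's adjusted p = 0.0681). Add2, which encodes a protein of the membrane skeleton, had 369 and 361 in FBB1.7, against 553 and 466 in FBB1.10 (-0.46, limma's adjusted p = 0.102). The heme synthesis list also holds the heme-degrading Hmox1, its highest member at 0.45, which is counted among the antioxidant genes too. The list had a median of -0.08, with 6 of 15 above 0 and none passing, and over all its probe sets the median was -0.0288. Alas2, the erythroid enzyme that starts heme synthesis, had 58.9 and 65.0 in FBB1.7, against 108 and 85.2 in FBB1.10 (-0.52, limma's adjusted p = 0.179). Tmem14c, a mitochondrial membrane protein gene needed for heme synthesis, had 1461 and 1425 in FBB1.7, against 1190.1 and 1220.3 in FBB1.10 (0.26, limma's adjusted p = 0.202). Car2, the carbonic anhydrase 2 gene, had 3153 and 2908 in FBB1.7, against 2416 and 2368 in FBB1.10 (0.34, limma's adjusted p = 0.168). Among immediate early and oncogene members, Junb had 97.7 and 87.2 in FBB1.7, against 148 and 130.3 in FBB1.10 (-0.52, limma's adjusted p = 0.131). Myc had 373 and 416 in FBB1.7, against 487 and 542 in FBB1.10 (-0.37, limma's adjusted p = 0.168).

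**Figure D5:**
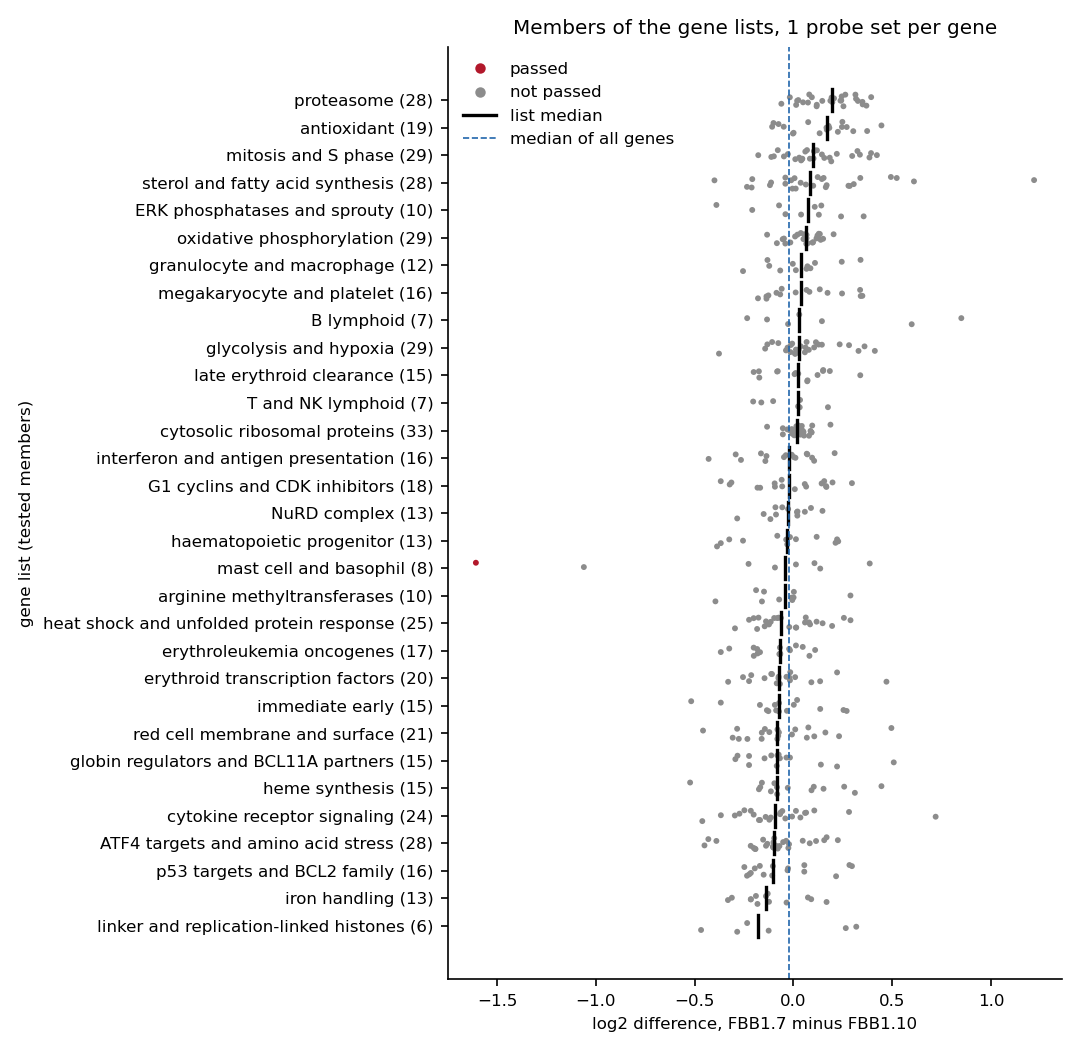
Each point is 1 gene of a list, read by its brightest probe set, with its log2 difference, FBB1.7 minus FBB1.10, on the x axis, and each black bar is the list's median, for lists with at least 6 tested members, ordered by that median. The dashed line is the median of all tested genes, -0.02, and the red point is Mcpt2, the 1 member that passed.

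The genes that passed were too few to show how differences lie along the genome. By brightest probe set, at most 3 of them lay on 1 chromosome, chromosome 1, which holds 5.71% of the tested genes. Chromosome 14, with 3.54% of the tested genes, held 2, Mcpt2 and Ndst2. Taking only genes brighter than 200 on average, chromosome medians of the log2 difference ran between -0.06 on chromosome 14 and -0.0045 on chromosome 16. The running median over 15 neighbouring genes lay between -0.20, on chromosome 15 around Kansl2, and 0.11.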

How the data were processed

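The deposited table holds linear probe set intensities of 10 arrays. Per the labels' protocols, cRNA was made from oligo-dT-primed cDNA and biotin-labelled. How the authors summarised, background-corrected and scaled probes is not given in the sources used. Arrays were grouped by title, and no 2 held identical values. The scale is log2(intensity + 16), on which differences of dim genes come out too small. Array medians differed by 0.0623 on this scale, and no further normalization was applied. limma 3.58.1 in R 4.3.3 fitted 5 line means over all 10 arrays (5 residual degrees of freedom, 9.92 from the prior), an intensity trend in the variance and a Benjamini-Hochberg threshold of 0.05. The spread is thus pooled over lines, and the number of arrays limits the precision. Folds are on linear intensity. If the dimmer line had an array no brighter than the table median, that array was raised to the median and the fold is a lower bound. Names come from the platform annotation: 21193 tested probe sets have 1 symbol, 583 several and 3285 none, and 34754 of 34958 one-symbol probe sets matched RefSeq (GRCm38.p6). Figures were drawn in Python 3.11.15 with matplotlib 3.10.9.

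Members and gene lists were chosen with earlier results of these data known. The rule named all Bcl11a and globin probe sets, the 12 highest and 12 lowest passing genes by brightest probe set, the 8 genes of smallest p and, per list, at most 4 members by smallest p. Some probe sets outside that rule were named after their values were seen. They are dimmer or shared passing ones, other probe sets of passing genes, and those of Psmd1, Psmc6, Psmd3, the mitotic genes, Gpx1, Elovl6 and Stat5b. The code was tested on simulated data. Alternatives covered the pseudocount, filter, scaling, variance model, arrays fitted, a block for the replicate number, a minimum of 1.5-fold and each array left out.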

Additional observations from a re-analysis of the deposited data

How the results depend on the processing

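The number of probe sets that passed, 31, moved with the filter, the scaling, the variance model and the arrays fitted. It was 2 with no filter, 20 with a 1.5-fold minimum, 54 with quantile normalization, 66 with a robust variance and 159 when only the 4 arrays were fitted. Without the intensity trend it was 0 in limma, with 2438 probe sets at an unadjusted p under 0.05, and the smallest adjusted p, that of Mcpt2, was 0.0722. It was 158 without the Parental line, an alternative chosen after seeing the data, and leaving out 1 array gave 3 to 164. All 31 were among those that passed with only the 4 arrays, with a robust variance and without the Parental line, and 30 of them with quantile normalization. With the replicate number as a block it was 83, including all 31, but the numbers do not pair the samples: deviations of same-numbered FBB1.7 and FBB1.10 arrays correlated at -0.0417. With median centring, either other pseudocount, and the filter over the 4 or all 10 arrays it was 23 to 45. The log2 difference of 1 Bcl11a probe set, -0.01, became 0.0182 with median centring and 0.0173 with quantile normalization, and ran from -0.0736 (without FBB1.7 replicate 2) to 0.0511 (without FBB1.7 replicate 1). That of Hba-x, -0.01, became 0.0152 with median centring and 0.00945 with quantile normalization, and ran from -0.106 to 0.0774 without 1 array. The shared beta-globin probe set ran from -0.0337 to 0.0722 and Hbb-b2 from -0.135 to 0.189 without 1 array. These 11 were the only sign changes among the values of named probe sets, 2392 of which kept direction and call, while 249 lost and 56 gained a call. The causes were not tested. Of the list medians 732 moved by less than the spread between arrays and 27 by more. The proteasome median lay between 0.131 and 0.245 without 1 array. Signal near the table median limits what can be said of Cma1, Socs3, Frmd6, Acot1, the dimmer Fam178b probe set and the embryonic beta-like globin genes.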

Other observations

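With the Parental line left out of the fit, a choice made after seeing the data, 158 probe sets passed limma's test between FBB1.7 and FBB1.10 and all 31 were among them. Further genes that passed there include Ogt, the enzyme gene that attaches N-acetylglucosamine to nuclear and cytosolic proteins, lower in FBB1.7 by a log2 difference of -0.80 (limma's adjusted p = 0.0199). Irf2bp2, a transcriptional corepressor gene, passed with 2 probe sets, the one with the smaller p at -0.66 (limma's adjusted p = 0.0162). Cma1, at least 2.60-fold lower since 1 FBB1.7 array lay below the table median, passed there too (limma's adjusted p = 0.0293). Pcna and Scd1 passed above 0, each at limma's adjusted p = 0.0277, and Aqp1, Lyl1, Mcm5, Psma2 and Psmb7 did so as well.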
